A study of Mus musculus with 30 samples.

Results

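The genes of the Polycomb repressive complexes were followed in mouse embryonic stem cells (ESCs) as they were driven towards neuromesodermal progenitors, the tail-end cells of the embryo that form both spinal cord and mesoderm. Members were chosen by name, as 10 rows of the 54134 in the count table: Ezh1, Ezh2, Eed, Suz12, Jarid2, Mtf2 and Phf19 of Polycomb repressive complex 2 (PRC2), and Bmi1, Cbx2 and Cbx7 of Polycomb repressive complex 1 (PRC1). They were taken as context for Hox genes that are released early when Nr6a1 is lost. Of the 10, 9 passed the filter on low counts that left 12149 genes for testing, and Phf19 did not.

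The cells were of the Bruce4 ESC line and were either wildtype or carried CRISPR/Cas9 deletions on both alleles of Nr6a1, an orphan nuclear receptor. Only 1 clone was used for Nr6a1-/-, and its own traits and those of the genotype cannot be told apart. Every culture was given FGF2, and the Wnt agonist CHIR99021 was added to all cells from d2 on. Libraries were made at d2 (before the agonist) and then on d2.5, d3 and d4, the last both without and, as d4G, with the growth factor Gdf11 over the final day. The labels give 4 sample indexes to both a d4 and a d4G library and 2 to both a d3 and a d4 library, so the libraries of d3, d4 and d4G were in more than 1 index pool. Pools are not named, and their part in the d3 to d4 and Gdf11 comparisons was not tested. Each of the 10 groups held 3 replicates, which the labels do not tie to separate cultures, so p-values measure the spread between these libraries, which may be technical.

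Polycomb proteins keep developmental genes silent. PRC2 methylates lysine 27 of histone H3 through Ezh2 or its slower relative Ezh1, which work only together with Eed and Suz12, while Jarid2, Mtf2 and Phf19 are accessory subunits that bring the complex to its targets, many of them CpG-rich promoters. Canonical PRC1 reads this mark through a Cbx protein, such as Cbx7 in pluripotent cells or Cbx2 in differentiating ones, and holds a Pcgf protein, such as Bmi1. The Hox clusters are their best-known targets, where silencing is lifted in order along the cluster as the body axis grows.

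At d4, 2 of the 9 tested members were called between genotypes, beside 18.9% of all tested genes. Jarid2 was higher in Nr6a1-/- cells and Cbx7 was lower. The Cbx7 call was lost without d4 wildtype replicate 2, and its difference at d4G was of similar size. The upstream sequence of both genes is shown. It is given as the 250 bases before the RefSeq start in build GRCm38.p6, 5′ to 3′ on the gene's strand, with CpG dinucleotides in capitals. The Jarid2 window is chr13:44730524-44730773 on the plus strand and the Cbx7 window is chr15:79932647-79932896 on the minus strand.
Jarid2: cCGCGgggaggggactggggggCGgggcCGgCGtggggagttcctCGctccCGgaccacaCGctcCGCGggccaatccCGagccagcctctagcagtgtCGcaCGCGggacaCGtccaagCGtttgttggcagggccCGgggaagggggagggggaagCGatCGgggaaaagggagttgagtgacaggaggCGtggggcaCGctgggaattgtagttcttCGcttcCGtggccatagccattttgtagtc
Cbx7: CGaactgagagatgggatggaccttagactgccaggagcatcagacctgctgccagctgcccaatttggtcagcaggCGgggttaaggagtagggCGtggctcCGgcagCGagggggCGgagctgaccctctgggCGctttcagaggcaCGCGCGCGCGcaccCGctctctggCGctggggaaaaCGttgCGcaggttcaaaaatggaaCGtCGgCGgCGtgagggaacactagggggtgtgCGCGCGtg
Each holds 23 CpG, against a median of 6 over all 32851 windows of this length in the RefSeq table. In GENCODE vM21 the Jarid2 window lies within an intron of longer Jarid2 transcripts, and the Cbx7 window lies inside the gene as well, with 122 of its 250 bases in annotated exons and 6 in an annotated UTR. The table matched 9 of the 10 members, with 11 windows that held between 2 and 37 CpG. The nuclear receptor half-site AGGTCA was searched on both strands and found in 14.0% of all windows, and 2 of all windows (0.00609%) held it as a direct repeat with no gap, the form Nr6a1 binds, which contains the half-site. The core CTTTGAT, which the Wnt effectors of the TCF/LEF family bind, was found in 3.21% of all windows. None of these strings was in the 11 windows of the members, which says only that these letters are not there.

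Levels are given as CPM, a gene's counts per library brought to a common library size with TMM factors. Library totals ranged from 1570714 to 3688197 counts with a median of 2366002, and 3 counts, the limit that a count of 0 allows, were worth 0.813 to 1.91 CPM. The reads come from 3′ ends, where a deletion inside Nr6a1 need not show, and its count could therefore not check the labels: it averaged 18.0 to 177 CPM over the wildtype groups and 28.6 to 287 CPM over the Nr6a1-/- groups. Sums of markers went with the labels of stage, which does not check the genotype. The summed CPM of 11 ESC and epiblast markers, Pou5f1, Utf1 and Dnmt3b among them, was 2435 to 3254 in the d2 libraries and 110 to 152 in 11 of the 12 d4 and d4G libraries, while that of 9 progenitor markers, T and Cdx2 among them, was highest at d3, at 1087 to 1676. The first sum was mostly Dnmt3b and Utf1, with means of 1721 and 527 CPM in wildtype cells at d2. Not every marker on that list fell. Klf4 averaged 2.79 CPM at d2 in wildtype cells and stood at 9.15, 8.01 and 6.60 CPM at d4. Fibroblast markers summed to 16.5 to 74.8 CPM over all libraries. The exception was d4 wildtype replicate 2, with 693 CPM of the ESC and epiblast markers against 152 and 133 in replicates 1 and 3. In it Dnmt3b, highly expressed at d2, stood at 516 CPM against 71.1 and 68.7, and Utf1 at 100 CPM against 17.4 and 7.81. Only 5 of the 11 markers were highest in that library of the group, and Zfp42, for example, stood at 4.70 CPM against 6.54 and 5.40. Calls at d4 are therefore also described without this library.

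The members differed in how much they varied over the 10 groups, as the plot of all libraries by stage shows. The highest group mean was 1.32 times the lowest for Ezh2, 1.37 for Eed and 1.34 for Mtf2, against 3.98 for Jarid2 and 17.6 for Cbx7. Jarid2, Mtf2, Cbx7 and Phf19 had their highest means at d2 in both genotypes, as Eed did in wildtype cells. Bmi1 and Cbx2 had their lowest means at d2 in both genotypes. These are descriptions of group means, and the tests of each step follow.

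**Figure D1:**
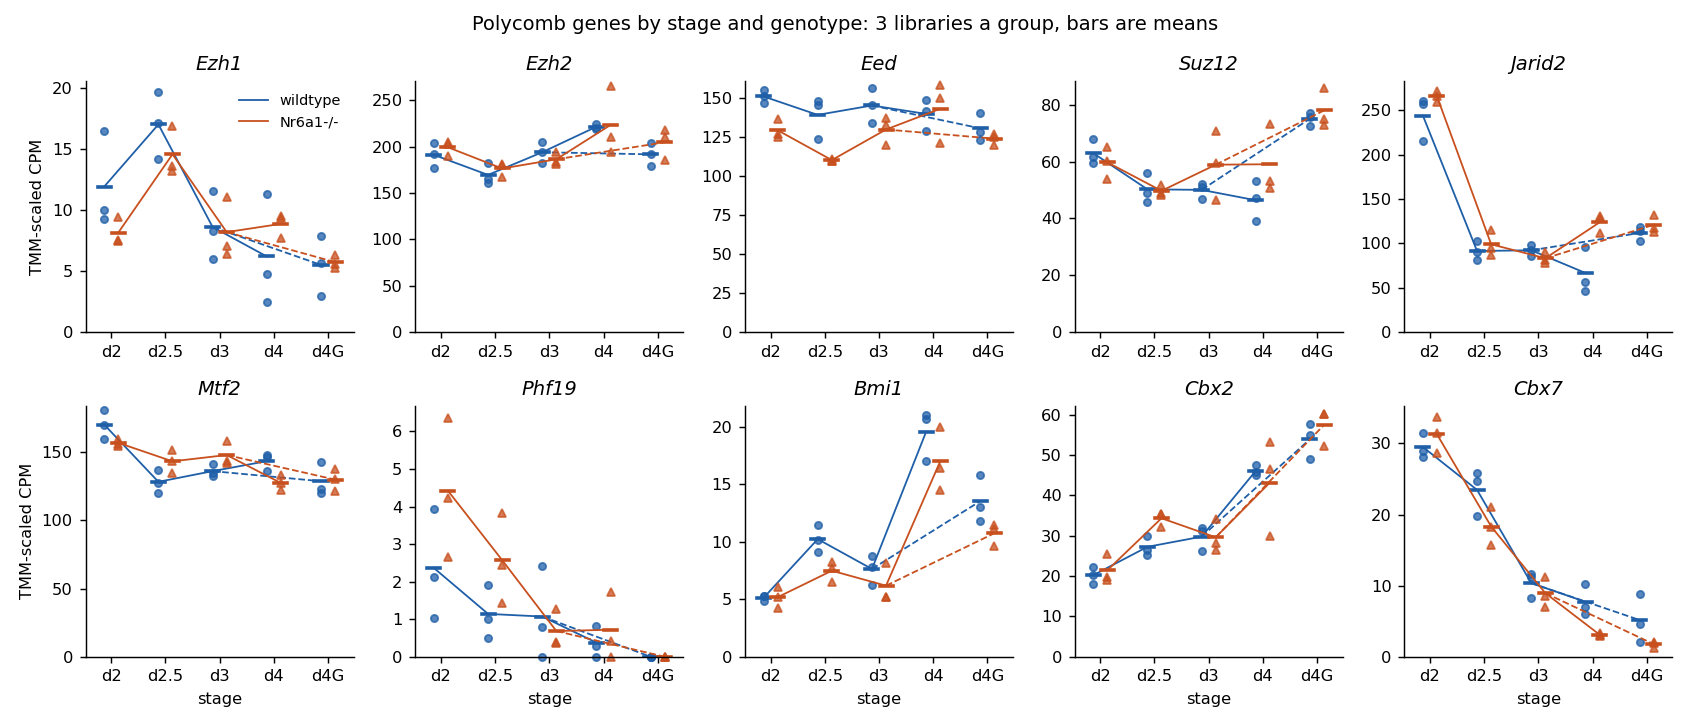
TMM-scaled CPM (vertical axis, from 0, one scale per gene) of the 10 members in each library by stage, wildtype as blue circles and Nr6a1-/- as orange triangles, with group means as bars, solid lines through d2 to d4 and dashed lines from d3 to d4G. Jarid2 fell from 244 to 91.4 CPM between d2 and d2.5 in wildtype cells, and the genotypes parted at d4, at 66.6 and 124 CPM.

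The catalytic subunits were examined first. Ezh2, the main methyltransferase of dividing cells, stood between 161 and 225 CPM in the 15 wildtype libraries and between 167 and 266 in the 15 Nr6a1-/- libraries. Its group means ran from 169.5 ± 11.4 CPM (d2.5) to 222 ± 2.98 (d4) in wildtype cells (SD, n = 3). The genotypes overlapped at every stage, and the log2 fold change of Nr6a1-/- over wildtype lay between -0.06 and 0.10, with 95% intervals that reached no farther than -0.25 and 0.29, or 0.842-fold to 1.22-fold. In Nr6a1-/- cells Ezh2 rose slightly from d3 to d4 (log2 fold change 0.26, SE 0.0922, FDR = 0.0323), a call that was lost in 8 of 12 alternatives. The wildtype step was of similar size but not called (0.19, 95% interval 0.0046 to 0.38, FDR = 0.142). The difference between the 2 steps was not called either (0.07, FDR = 0.824).

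Ezh1, the methyltransferase that prevails in resting cells, was measured at few counts, 7 to 44 per library. In wildtype cells it stood at 17.2, 14.2 and 19.7 CPM at d2.5 and at 11.6, 8.29 and 6.0 CPM at d3, so that the 2 stages did not overlap. That fall was called (log2 fold change -1.001, SE 0.317, FDR = 0.0338), and in Nr6a1-/- cells the rise before it was, from 9.41, 7.49 and 7.59 CPM at d2 to 16.9, 13.7 and 13.2 CPM at d2.5 (0.84, SE 0.307, FDR = 0.0415). Both calls depended on single libraries, since the first was lost without d2.5 wildtype replicate 1 or 3 or d3 wildtype replicate 2 or 3, at -1.25 to -0.77 over all alternatives, and the second without any 1 of its 6 libraries, at 0.71 to 0.93. Between genotypes Ezh1 was not called with all libraries, and its intervals were wide, from 0.441-fold to 2.60-fold over the 5 stages. At d4 its log2 fold change was 0.66 (FDR = 0.213), and it passed the threshold without wildtype replicate 1 (1.29, FDR = 0.0120), while without wildtype replicate 2 it was 0.21 (FDR = 0.745).

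Eed, the subunit that binds the methylated lysine and stimulates the enzyme, differed at d2.5. It stood at 124, 145 and 148 CPM in the wildtype libraries and at 110, 110 and 111 CPM in the Nr6a1-/- libraries, all 3 below the lowest wildtype library (log2 fold change -0.34, SE 0.0967, FDR = 0.0288). The call held without d2.5 wildtype replicate 1 (-0.41, FDR = 0.0170) and was lost without any other 1 of the 6 libraries, or without the filter on low counts, where the log2 fold change stayed between -0.41 and -0.29. At d2 the libraries did not overlap either, with 136, 125 and 127 CPM in Nr6a1-/- against 151, 147 and 155 CPM in wildtype cells, but the difference was not called (-0.23, SE 0.0949, FDR = 0.205). From d3 on the groups overlapped and the log2 fold change was between -0.16 and 0.04. No step between stages and no Gdf11 comparison passed the threshold for Eed.

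Suz12, the scaffold of PRC2, rose with Gdf11. In wildtype cells it stood at 47.1, 53.0 and 39.0 CPM at d4 and then, at d4G, at 72.6, 75.5 and 77.2 CPM, a 1.62-fold rise (log2 fold change 0.69, SE 0.133, FDR = 1.27e-04) that was called in each of 12 alternatives. The Nr6a1-/- libraries had 50.7, 53.2 and 73.3 CPM without Gdf11 (d4) and 75.03, 86.0 and 72.9 CPM with it (d4G), and d4 replicate 3 reached into the range of d4G. That rise was smaller (0.39, SE 0.136, FDR = 0.0424) and was lost in 7 of 12 alternatives, without d4 Nr6a1-/- replicate 1 for example (0.29, FDR = 0.211). The difference between these responses was not called (-0.30, 95% interval -0.69 to 0.08, FDR = 0.478). At d4 Suz12 was 1.27-fold higher in Nr6a1-/- than in wildtype cells, with overlapping libraries (0.35, SE 0.138, FDR = 0.0714), and this passed the threshold without d4 wildtype replicate 2 (0.46, FDR = 0.0377) or d4 Nr6a1-/- replicate 1 (0.44, FDR = 0.0292). Without d4 Nr6a1-/- replicate 3 it was 0.16 (FDR = 0.538) and without d4 wildtype replicate 3 it was 0.21 (FDR = 0.359).

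Jarid2, which binds the PRC2 core and helps it onto chromatin, had the widest range of group means among the tested PRC2 members. In wildtype cells it stood at 215, 257 and 260 CPM at d2 and at 81.5, 89.9 and 103 CPM at d2.5, and in Nr6a1-/- cells at 259, 266 and 272 CPM and 115, 94.9 and 87.3 CPM. The fall was 0.374-fold in wildtype (log2 fold change -1.42, SE 0.146, FDR = 1.91e-09) and 0.372-fold in Nr6a1-/- cells (-1.43, SE 0.141, FDR = 4.96e-10), and it was called in all 12 alternatives of each. From d2.5 to d3 neither genotype was called, and at d3 the genotypes overlapped, with 98.5, 92.5 and 85.6 CPM against 90.7, 77.8 and 81.1 CPM in Nr6a1-/- cells.

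At d4 Jarid2 parted by genotype. It stood at 56.7, 96.4 and 46.8 CPM in the wildtype libraries and at 131, 112 and 128 CPM in the Nr6a1-/- libraries, each of which was above each wildtype library. The difference was 1.83-fold (log2 fold change 0.88, SE 0.150, 95% interval 0.57 to 1.18, FDR = 3.45e-05). The highest wildtype value is that of replicate 2, the library with the higher marker sum, mostly Dnmt3b and Utf1. Without it the log2 fold change was 1.25 (FDR = 3.21e-09). All 12 alternatives kept the call, with values of 0.64 to 1.25.

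From d3 to d4 Jarid2 moved in opposite directions, down in wildtype cells (log2 fold change -0.45, SE 0.154, FDR = 0.0336) and up in Nr6a1-/- cells (0.57, SE 0.150, FDR = 0.00404). The fall in wildtype cells was not called from the compared libraries alone, nor without d3 replicate 1 or 2 or d4 replicate 1 or 3, and was -0.83 (FDR = 1.40e-05) without d4 replicate 2. The difference between the genotypes in this step was itself called (1.02, SE 0.215, FDR = 0.00235) and kept its call in 18 of 18 alternatives, with values of 0.78 to 1.39. With Gdf11 the wildtype cells rose to 118, 114 and 103 CPM (log2 fold change over d4 0.73, SE 0.151, FDR = 3.27e-04), while the Nr6a1-/- cells stood at 113, 132 and 118 CPM and did not pass the threshold (-0.04, 95% interval -0.34 to 0.26, FDR = 0.896). At d4G the genotypes overlapped, and their log2 fold change was 0.11, with a 95% interval of -0.19 to 0.41. The difference in Gdf11 response was called (-0.77, SE 0.212, FDR = 0.0389) but was lost in 8 of 18 alternatives, among them the ones without d4 wildtype replicate 1 or 3 or d4G wildtype replicate 2 (-0.75, FDR = 0.0815), and was -1.15 without d4 wildtype replicate 2 (FDR = 3.13e-05). The d4 wildtype libraries are shared by the genotype difference at d4, the wildtype step from d3 to d4, the wildtype Gdf11 response and both tests of a difference between genotypes, so these 5 results are not independent of each other.

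**Figure D2:**
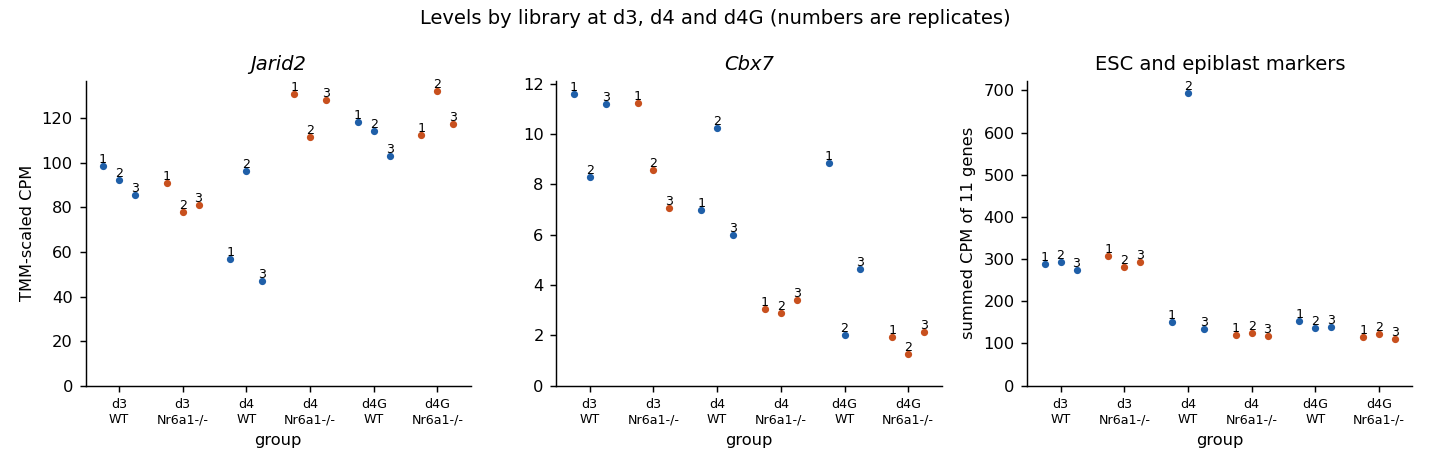
CPM of Jarid2 and of Cbx7, and summed CPM of the 11 ESC and epiblast markers, in each library at d3, d4 and d4G (vertical axes from 0, points numbered by replicate, wildtype blue, Nr6a1-/- orange). In d4 wildtype replicate 2 the marker sum was 693 CPM, and the same library had the highest Jarid2 (96.4 CPM) and Cbx7 (10.2 CPM) of its group.

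Mtf2, a Polycomb-like subunit that binds unmethylated CpG, fell in wildtype cells from 181, 160 and 170 CPM at d2 to 128, 137 and 120 CPM at d2.5, groups that did not overlap (log2 fold change -0.41, SE 0.0867, FDR = 5.01e-04). In Nr6a1-/- cells the same step was not called (-0.13, 95% interval -0.30 to 0.04), and the difference between the 2 steps was not tested. Between genotypes Mtf2 was not called at any stage. It was higher in every Nr6a1-/- library than in every wildtype library at d3 and lower at d4, with log2 fold changes of 0.12 and -0.17 and FDR of 0.438 and 0.175. The end of Mtf2 overlaps Tmed5 on the opposite strand by 2639 bases, and no source used here states whether counting used strand, so reads of the pair cannot be told apart there. Tmed5 was higher in Nr6a1-/- cells at d3 (log2 fold change 0.33, SE 0.107, FDR = 0.0418), where Mtf2 stood at 0.12, and at d4G (0.53, SE 0.106, FDR = 6.14e-04), where Mtf2 stood at 0.02. The part of shared reads in the Mtf2 values was not tested.

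Phf19, another Polycomb-like subunit, was close to the limit of detection. The 3 libraries of a group together held 16 counts in wildtype and 33 in Nr6a1-/- cells on d2. On d2.5 the sums were 7 and 21, on d3 they were 7 and 5, on d4 they were 4 and 5, and with Gdf11 no library had any. As pooled rates it was 5.23-fold higher at d2 than at d4 in wildtype (95% counting interval 1.69 to 21.5) and 5.97-fold in Nr6a1-/- cells (2.32 to 19.6). The d2 rates were 5.26-fold and 8.85-fold those that 3 counts over the group would give at d4G. These 2 figures leave out the counting error at d2 and are not lower bounds. The ratio of Nr6a1-/- to wildtype was 1.96 at d2 (1.05 to 3.82) and 2.20 at d2.5 (0.899 to 6.11). These intervals cover counting error only, and at d2 the libraries overlapped, at 4.24, 6.37 and 2.66 CPM against 3.94, 2.12 and 1.03 CPM. When the filter on low counts was dropped Phf19 was not called in any of the 16 comparisons. None of these sets d2 against d4 or d4G, so the fall over that span was not tested with edgeR.

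Cbx7, the chromodomain protein of PRC1 in pluripotent cells, had lower group means at each stage from d2 to d4, and its means at d4G, the parallel day with Gdf11, were below those at d4. In wildtype cells its means were 29.5 ± 1.75, 23.5 ± 3.29, 10.4 ± 1.80, 7.73 ± 2.21 and 5.17 ± 3.44 CPM from d2 through d2.5, d3 and d4 to d4G, and in Nr6a1-/- cells 31.3 ± 2.497, 18.3 ± 2.64, 8.95 ± 2.12, 3.11 ± 0.263 and 1.78 ± 0.453 CPM (SD, n = 3). Of the steps, d2.5 to d3 was called in both genotypes, with log2 fold changes of -1.17 (SE 0.237, FDR = 6.34e-04) and -1.04 (SE 0.238, FDR = 0.00178), and d2 to d2.5 (-0.77, FDR = 0.00281) and d3 to d4 (-1.50, SE 0.352, FDR = 0.00137) were called in Nr6a1-/- cells. Neither change with Gdf11 was called (FDR = 0.123 and 0.351), and the wildtype libraries overlapped. The difference between genotypes in the step from d3 to d4 was not called (-1.10, 95% interval -2.01 to -0.19, FDR = 0.153).

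At d4 Cbx7 stood at 6.97, 10.2 and 6.0 CPM in wildtype and at 3.03, 2.90 and 3.41 CPM in Nr6a1-/- libraries, which did not overlap. These are 73 and 21 counts over the 3 libraries. The log2 fold change was -1.32 (SE 0.350, FDR = 0.00610), or 0.401-fold. Without d4 wildtype replicate 2 it was -1.04 (FDR = 0.0694), so the call rested on this library, and it held in the other 11 alternatives. At d4G the difference was of similar size (-1.43, SE 0.468, FDR = 0.0531) and the libraries overlapped, at 8.84, 2.03 and 4.64 CPM against 1.92, 1.27 and 2.14 CPM. It passed the threshold without d4G wildtype replicate 2 (-1.84, FDR = 0.00528) and with library totals alone (-1.47, FDR = 0.0437), and without d4G wildtype replicate 1 it was -0.83 (FDR = 0.473). The last 100 bases of Cbx7 overlap the end of Apobec3 on the opposite strand. Apobec3 was also lower in Nr6a1-/- cells at d4 (log2 fold change -1.46, SE 0.520, FDR = 0.0450), with 1.36 ± 0.539 CPM against 3.705 ± 1.72 CPM in wildtype cells (SD, n = 3), and at d4G it was not called (0.73, FDR = 0.610). The part of shared reads in the Cbx7 result was not tested.

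Bmi1 and Cbx2, the other PRC1 members, were lowest at d2, by group means. Bmi1 (Pcgf4), which activates the ubiquitin ligase of PRC1, stood at 6.28, 7.83 and 8.80 CPM at d3 and 17.001, 21.0 and 20.7 CPM at d4 in wildtype cells, and at 5.22, 8.12 and 5.21 CPM and then 16.5, 14.5 and 20.02 CPM in Nr6a1-/- cells. No d4 library overlapped a d3 library of its genotype, and both rises were called in all 12 alternatives (2.56-fold, log2 fold change 1.35, SE 0.203, FDR = 3.87e-06, and 2.77-fold, 1.47, SE 0.221, FDR = 2.85e-06). Wildtype Bmi1 had also risen from d2 to d2.5 (1.002, SE 0.261, FDR = 0.00478). With Gdf11 it was lower than at d4 in both genotypes (-0.55, FDR = 0.0205, and -0.67, FDR = 0.0206), calls that were lost in 7 and 6 of 12 alternatives.

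Cbx2, a chromodomain protein that compacts chromatin, rose from 31.9, 26.2 and 31.2 CPM at d3 to 45.8, 45.0 and 47.4 CPM at d4 in wildtype cells, without overlap (log2 fold change 0.63, SE 0.150, FDR = 0.00207). The Nr6a1-/- libraries had 28.1, 26.5 and 34.2 CPM and then 29.9, 53.2 and 46.4 CPM, and the rise (0.53, SE 0.154, FDR = 0.00884) was lost from the compared libraries alone and without d3 replicate 2 or d4 replicate 2 or 3 (FDR values over all alternatives reached 0.125). An earlier rise, from d2 to d2.5, was called in Nr6a1-/- cells (0.68, SE 0.163, FDR = 0.00192) and not in wildtype cells (0.42, FDR = 0.0800). With Gdf11 Cbx2 was higher than at d4 in Nr6a1-/- cells (0.43, FDR = 0.0360), a call that was lost in 6 of 12 alternatives, DESeq2 and 3 single libraries among them. Neither Bmi1 nor Cbx2 was called between genotypes, with intervals of 0.528-fold to 1.54-fold for Bmi1 and 0.764-fold to 1.58-fold for Cbx2 over the 5 stages.

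**Figure D3:**
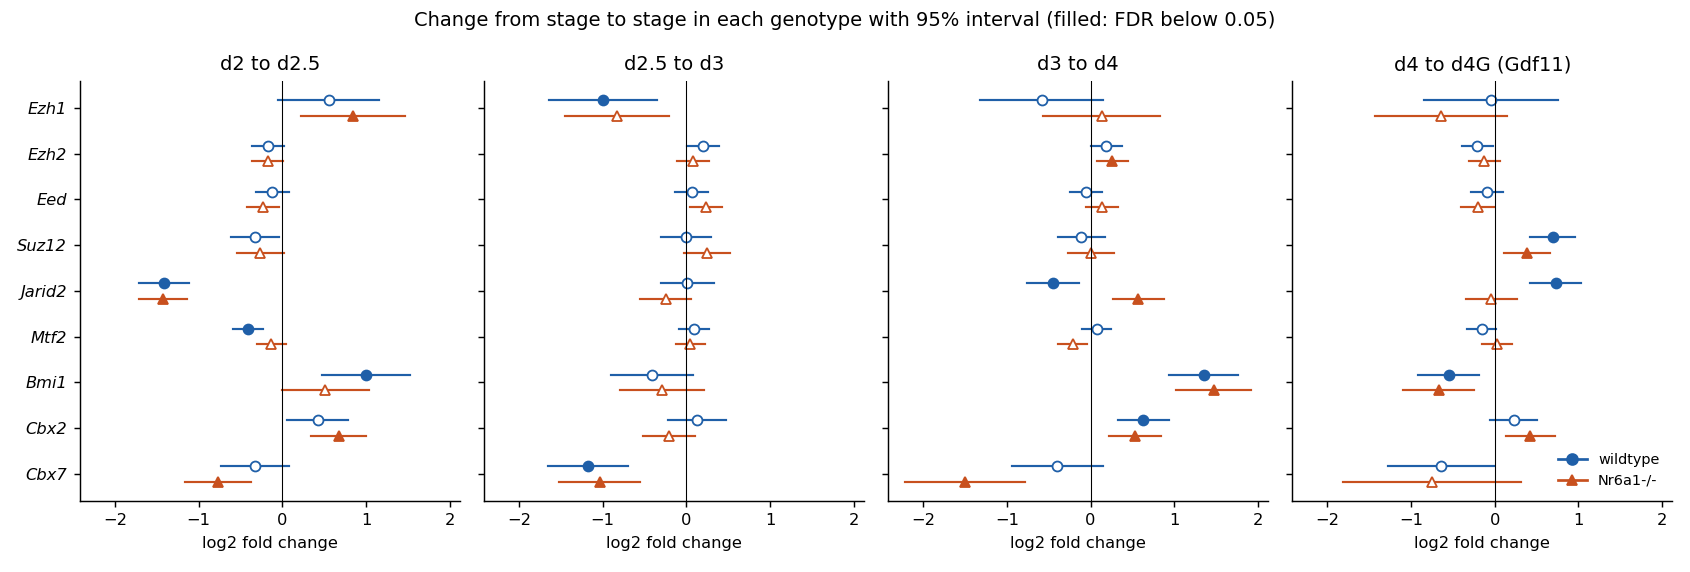
Log2 fold change of the 9 tested members from each stage to the next and from d4 to d4G, with 95% intervals, for wildtype (blue circles) and Nr6a1-/- cells (orange triangles), filled where the FDR was below 0.05. Jarid2 fell in both genotypes from d2 to d2.5 (-1.42 and -1.43) and moved in opposite directions from d3 to d4 (-0.45 and 0.57).

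Across all members the stages gave more calls than the genotype. Of 45 member tests between genotypes 3 were called, and of 54 tests between successive stages 18 were. The shares of all tested genes ran the same way, at 4.07% to 18.9% per genotype comparison and 11.5% to 25.9% per step. On d2, 0 of 9 members were called, where 4.07% of all tested genes were. The d2.5 libraries gave 1 call (6.45% of all genes), those of d3 gave 0 (10.8%), those of d4 gave 2 (18.9%) and those of d4G gave 0 (7.9%). At an unadjusted p below 0.05 these counts were 1, 2, 0, 3 and 1, against 16.1%, 19.4%, 23.4%, 30.9% and 19% of all genes. DESeq2 called 0, 1, 0, 2 and 0 members and 3.22%, 5.15%, 8.55%, 15.4% and 6.54% of all genes. Members whose libraries did not overlap between genotypes numbered 1, 3, 1, 3 and 1, against 21.3%, 25.2%, 28.5%, 29.2% and 24.3% of all genes. Nothing particular to the members was read from these counts.

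In wildtype cells 3 members were called from d2 to d2.5 (25.4% of all genes), 2 from d2.5 to d3 (11.5%) and 3 from d3 to d4 (21.1%). In Nr6a1-/- cells 4 were called from d2 to d2.5 (24.1%), 1 from d2.5 to d3 (15.9%) and 5 from d3 to d4 (25.9%). Gdf11 called 3 members in wildtype (28.8% of all genes) and 3 in Nr6a1-/- cells (18%). The test of a genotype difference called 0 members in the change from d2 to d3 (2.27% of all genes). It called 1 from d3 to d4 (5.72%) and 1 in the Gdf11 response (2.66%), Jarid2 in both. At an unadjusted p below 0.05 these 3 counts were 0, 3 and 1, against 13.5%, 19.8% and 14.9% of all genes. DESeq2 called 0, 1 and 1 members and 2.02%, 4.9% and 2.31% of all genes.

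**Figure D4:**
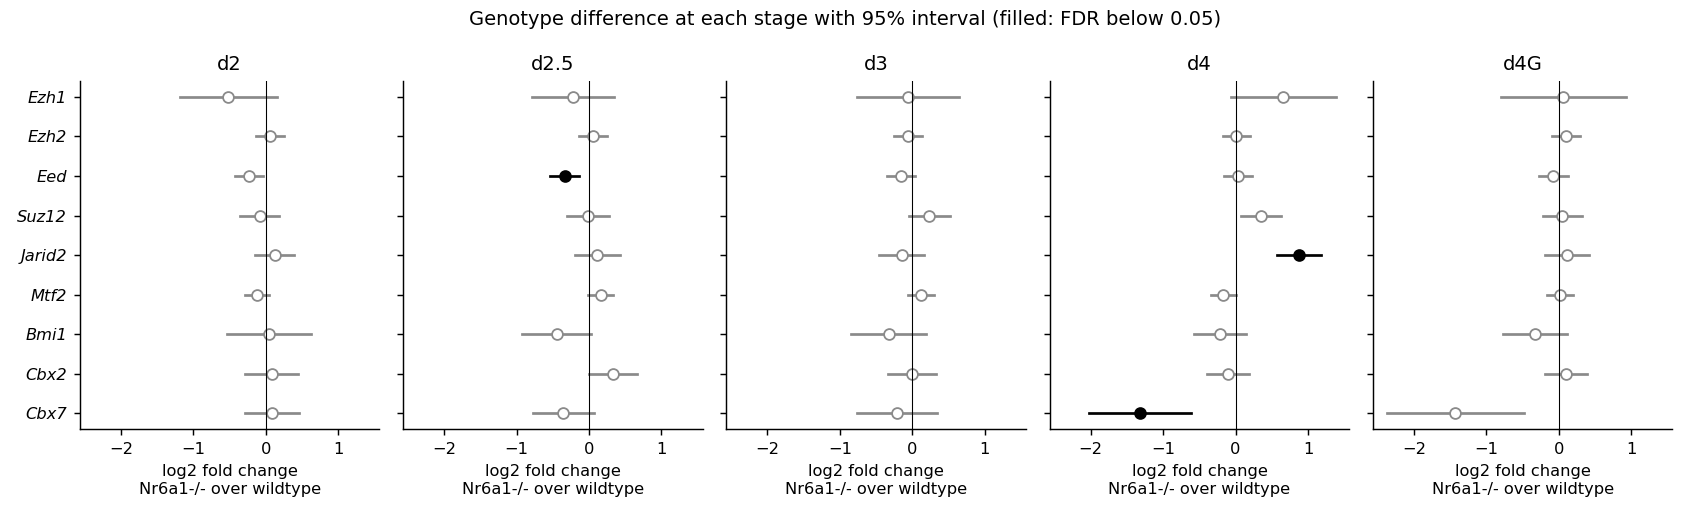
Log2 fold change of Nr6a1-/- over wildtype cells (horizontal axis) with its 95% interval for the 9 tested members at each of the 5 stages, filled where the FDR was below 0.05. Filled points are Eed at d2.5 (-0.34) and Jarid2 (0.88) and Cbx7 (-1.32) at d4, and the Cbx7 value at d4G (-1.43) missed the threshold.

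Some cell type markers moved with the genotype at d4, and not at that stage alone. All 4 tested of 5 presomitic mesoderm markers were called higher in Nr6a1-/- cells, and their sum was 278 to 322 CPM in wildtype and 713 to 801 CPM in Nr6a1-/- libraries, with no marker at 0. All 4 tested of 5 endoderm markers were called lower, and summed to 42.5 to 51.3 CPM and to 4.26 to 9.19 CPM. Of the 11 ESC and epiblast markers 7 were called lower with all libraries and 2, Zfp42 and Dppa3, without d4 wildtype replicate 2, where Dnmt3b turned from -1.41 to 0.25 on the log2 scale. The calls of the mesoderm and endoderm markers all held without it. At d4G all 4 tested mesoderm markers were again called higher and 3 of 4 endoderm markers lower. Endoderm markers were called lower at every stage, between 2 (d3) and 4 (d4) of the 4 tested. Other lists were mixed at d4, with 4 of 9 progenitor markers called higher and 3 lower, and 1 of 4 tested neural markers called higher and 2 lower. Proliferation genes summed to 3334 to 3514 CPM in wildtype and 3513 to 3723 CPM in Nr6a1-/- libraries. In bulk samples fewer cells of a type and less RNA per cell cannot be told apart, and the part of cell makeup in the Jarid2 and Cbx7 results was not tested.

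The wider set of chromatin genes, 56 genes of PRC2, PRC1, the enzymes that remove their marks and the opposing Trithorax and COMPASS complexes, of which 51 were tested, was called at rates close to those of all genes. Between genotypes 3 of them were called at d2 (5.88%), 10 at d4 (19.6%) and 4 at each of the other stages (7.84%). Their median log2 fold change was -0.01, 0.06, 0.02, 0.13 and 0.05 at the 5 stages, against -0.01, 0.00, 0.00, 0.02 and 0.01 over all genes. At d4 6 were higher and 4 were lower. Without d4 wildtype replicate 2 the count was 8 (15.7%, against 15.1% of all genes), as the calls of Kdm6b (0.47, FDR = 0.0570), Ash1l (0.51, FDR = 0.0535) and Dpy30 were lost and that of Scml2 was gained.

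The PRC1 genes that differed belonged to canonical complexes and to variant ones, which lack a Cbx protein. Pcgf5, the Pcgf subunit of a variant complex, was lower in Nr6a1-/- cells at 4 of the 5 stages, with 6.16 ± 0.724 CPM in Nr6a1-/- against 13.7 ± 1.82 CPM in wildtype cells at d2.5 (log2 fold change -1.15, SE 0.284, FDR = 0.00914) and 3.39 ± 1.69 against 11.6 ± 2.87 CPM at d4G (-1.83, SE 0.355, FDR = 4.18e-04; SD, n = 3). Bcor, which belongs to the variant complex of Pcgf1, was higher at d4, at 33.7 ± 9.62 against 17.5 ± 3.75 CPM (0.93, SE 0.181, FDR = 2.23e-04). Pcgf2, the relative of Bmi1 in canonical PRC1, was higher at d3, at 32.7 ± 3.64 against 20.3 ± 4.04 CPM (0.69, SE 0.175, FDR = 0.00683), and Scmh1 of the same complex was lower at d4 (-0.69, FDR = 0.0215). Auts2, a partner of Pcgf5 in variant PRC1, was higher at d4 (0.66, FDR = 1.88e-04) and at d4G (0.45, FDR = 0.0152). Its d4 call was kept without d4 wildtype replicate 2 (0.73, FDR = 3.02e-04), as were those of Pcgf5, Bcor and Scmh1.

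Of 6 other PRC2 genes tested, Lcorl was lower at d2 (log2 fold change -0.60, FDR = 0.0145) and d3 (-0.72, FDR = 3.39e-04). Rbbp7, a histone-binding subunit, was higher at d2.5 (0.31, FDR = 0.0130) and lower at d4G (-0.29, FDR = 0.0200). Epop, which modulates PRC2 in ESCs, was higher at d4, at 60.8 ± 12.7 against 41.8 ± 2.75 CPM (0.55, SE 0.132, FDR = 0.00248; SD, n = 3). Kdm6b, a demethylase that removes the mark of PRC2, was lower at d2, at 235 ± 11.5 against 362 ± 40.9 CPM (-0.62, SE 0.155, FDR = 0.0128), and higher at d4, at 452 ± 8.98 against 316 ± 62.2 CPM (0.51, SE 0.151, FDR = 0.0146). Without d4 wildtype replicate 2 the Epop call was kept (0.52, FDR = 0.0148) and the d4 call of Kdm6b was lost (0.47, FDR = 0.0570).

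On the opposing side, Ash2l, a core subunit of the COMPASS methyltransferases, was lower in Nr6a1-/- cells at all 5 stages, with log2 fold changes of -0.72 (d2.5) to -0.36 (d4). Ash2l lies on chromosome 8, where the median log2 fold change of 655 tested genes was -0.38 to -0.29 over the stages and -0.38 at d2.5. No member lies on that chromosome. Setd1b was higher at d2.5 (0.39, FDR = 0.0279) and at d4 (0.50, FDR = 4.87e-04). Its d4 call was kept without d4 wildtype replicate 2 (0.43, FDR = 0.00884). Ash1l was higher at d4 (0.56, FDR = 0.0109), a call that was lost without that library (0.51, FDR = 0.0535).

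The posterior Hox genes (12 listed and 10 tested) were compared for context. Of the 10, 6 were called higher at d4G and 1 at each of d2.5, d3 and d4, and 1 was called lower at d3 and 1 at d4G. The last was Hoxc10, at 92.9 CPM in Nr6a1-/- against 282 CPM in wildtype cells (log2 fold change -1.60, edgeR FDR = 1.21e-09). The authors also count Hoxc10 among the genes of thoraco-lumbar identity. Hoxb13 averaged 25.6 ± 1.37 CPM at d3, 21.6 ± 4.73 at d4 and 145 ± 3.28 at d4G in Nr6a1-/- cells (SD, n = 3), against 0, 0.667 and 0.271 CPM in wildtype cells. It was higher in Nr6a1-/- cells at d2.5 as well, at 6.95 ± 1.62 CPM against 0.169. Of these 4 stages, d2.5 and d4 had 1 and 2 members called between genotypes and d3 and d4G had 0, beside the shares of all genes given above.

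Genes whose levels ran most like those of the 3 members called between genotypes were listed by Pearson's r of log2(CPM + 1) over the 10 group means, a description that carries no test. Jarid2 ran most like Cdk17 (r = 0.959), Arid2 (0.958) and Uba6 (0.955). Cbx7 ran most like Gtsf1l (0.996) and Rps4l (0.992), and Eed like Taf5l (0.917), Ints4 (0.892) and Nek1 (0.891).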

How the data were processed

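RNA of 30 libraries was measured in 10 groups of 3. The libraries were primed at the poly(A) tail with a sample index and a molecular identifier. Per the labels and the methods, the authors aligned reads with STAR to mm10, and the deposited table holds whole-number counts per gene, not normalised. Which annotation and counting tool were used, whether strand was, and how identifiers were collapsed are not given in the sources used here, so counting intervals cover counting error only. All columns were matched to a label and 0 were left over. The authors' 5 tables of genotype comparisons (CPM, log2 fold changes, p-values) were not used.

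The members and lists were chosen with earlier results of these data known. A gene was tested if at least 2 libraries of any 1 group had both over 10 counts and over 2 CPM of it, and 99.2% or more of each library's counts passed. The counts were scaled by TMM factors (0.909 to 1.05) and 1 model of all 10 groups was fitted with edgeR 4.0.16 under R 4.3.3, with 20 residual degrees of freedom. The 16 comparisons were tested 2-sided with glmQLFit and glmQLFTest, with Benjamini-Hochberg FDR over all genes tested and a threshold of 0.05. Standard errors are the log2 fold change over the square root of F. Replicate pairs differed by a chi-square per gene of 1.49 to 7.59 over 30 pairs, so none was counted as a repeat. Alternatives were RLE factors, library totals alone, no filter, DESeq2 1.42.0, only the libraries compared, a replicate block and leaving out each library. Named besides the members were, per list and genotype comparison, the called gene with the largest rise and fall among those of at least 10 CPM in 1 group, Hoxb13, genes used as checks, and the 3 genes most like each member called between genotypes, of which 1 is not reported here. Tmed5 and Apobec3 were added after the data were seen, as genes that overlap a member's end, and so were Dpy30 and Scml2, as genes whose calls turned on 1 library. Positions are from GENCODE vM21 (GRCm38). The script was tested on simulated data.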

Additional observations from a re-analysis of the deposited data

Results flagged for a closer look

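Jarid2 was singled out in 2 tests of a difference between genotypes. Its change from d3 to d4 differed by 1.02 on the log2 scale (Nr6a1-/- minus wildtype, SE 0.215, edgeR FDR = 0.00235). It fell in wildtype cells, a call lost in 5 of 12 alternatives, and rose in Nr6a1-/- cells. Its change with Gdf11 differed by -0.77 (SE 0.212, FDR = 0.0389). It rose in wildtype cells and was not called in Nr6a1-/- cells, and the call of the difference was lost in 8 of 18 alternatives, with values of -1.15 to -0.54. Both differences use the d4 wildtype libraries, of which replicate 2 had a higher sum of ESC and epiblast markers than the other 2, mostly Dnmt3b and Utf1. Without that library the differences were 1.39 (FDR = 9.75e-07) and -1.15 (FDR = 3.13e-05).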

How the results depend on the processing

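Over 864 alternative values of 71 member results, 757 kept direction and side of the threshold, 69 lost a call, 5 gained one and 33 turned sign, 0 of them of a called value. Of 29 called member results 17 held in every alternative tried. Of the 74 changes of a call 52 came with leaving out 1 library and 22 with other settings. Where a count of members called changed, the cause was not tested, and not every small change is listed. Without the filter on low counts it was 0 in place of 1 between genotypes at d2.5, 2 in place of 1 from d2.5 to d3 in Nr6a1-/- cells and 0 in place of 3 with Gdf11 in Nr6a1-/- cells. DESeq2 also gave 0 for the last (15.1% of all genes). In Nr6a1-/- cells it gave 3 in place of 4 from d2 to d2.5 (20.5%) and 4 in place of 5 from d3 to d4 (22.1%). With Gdf11 in wildtype cells it gave 2 in place of 3 (24.4%). With library totals alone the count of members called was 1 in place of 0 at d4G. Fits of only the libraries compared, which have fewer samples, gave 2 in place of 1 from d2.5 to d3 and 3 in place of 5 from d3 to d4 in Nr6a1-/- cells, and 0 for Gdf11 in Nr6a1-/- cells and for the genotype difference in Gdf11 response.

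Leaving out single libraries gave 0 to 1 members at d2.5, 2 to 3 at d4 and 0 to 1 at d4G. From d2 to d2.5 in Nr6a1-/- cells it gave 3 in every fit, in place of 4. From d2.5 to d3 it gave 1 to 2 in each genotype. From d3 to d4 it gave 2 to 3 in wildtype cells, and 3 to 4 in place of 5 in Nr6a1-/- cells. With Gdf11 it gave 2 to 4 in wildtype cells, and 0 to 2 in place of 3 in Nr6a1-/- cells. For the difference in that response it gave 0 to 1. Uncalled differences between genotypes near 0 turned sign. With library totals alone these were Cbx2 at d3 (0.0128), Ezh2 at d4 (-0.0101) and Mtf2 at d4G (-0.0261), without the filter Suz12 at d2.5 (0.0152), Cbx2 at d3 (0.0242) and Mtf2 at d4G (-0.00864), and with only the libraries compared Ezh2 at d4 (-0.0019). Leaving out libraries, the range was -0.0747 to 0.157 for Bmi1 and -0.0531 to 0.167 for Cbx2 at d2, -0.0793 to 0.0746 for Suz12 and -0.0119 to 0.207 for Jarid2 at d2.5, -0.323 to 0.192 for Ezh1 and -0.125 to 0.0731 for Cbx2 at d3, -0.146 to 0.104 for Ezh2, -0.0502 to 0.129 for Eed and -0.278 to 0.0943 for Cbx2 at d4, and -0.251 to 0.385 for Ezh1, -0.0216 to 0.0855 for Suz12 and -0.0370 to 0.0827 for Mtf2 at d4G.

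Over all genes, fits of only the libraries compared called 1398 in place of 2294 between genotypes at d4, 440 in place of 695 for the genotype difference from d3 to d4 and 212 in place of 323 for that in the Gdf11 response. The share of calls that were higher at d2 was 33.2% and 44% with library totals alone. Leaving out single libraries gave 304 to 392 calls in place of 494 at d2, 478 to 775 in place of 784 at d2.5 and 871 to 1084 in place of 1308 at d3. At d4 it gave 1487 to 2625, and at d4G 702 to 775 in place of 960. It gave 443 to 1157 for the difference from d3 to d4 and 205 to 823 for that in the Gdf11 response. From d2 to d2.5 in Nr6a1-/- cells it gave 2255 to 2524 in place of 2926. From d2.5 to d3 it gave 957 to 1085 in place of 1394 in wildtype and 1396 to 1618 in place of 1930 in Nr6a1-/- cells. From d3 to d4, in the same order, these were 1891 to 2324 in place of 2560 and 2429 to 3190 in place of 3144.

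With a replicate block the members called numbered 0, 1, 0, 2 and 0 between genotypes at the 5 stages, and the block changed no member count in any of the 16 comparisons. It gave 837 calls in place of 784 over all genes at d2.5. Same-numbered libraries did not deviate together, with r of -0.114 to 0.17 over 39 pairs, so the numbers were taken as names only. Depth limits the members with few counts, among them Phf19 with 0 to 33, Ezh1 with 34 to 120, Bmi1 with 36 to 184 and Cbx7 with 11 to 234 over the 3 libraries of a group.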
